A study of Mus musculus with 12 samples.

Results

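The urokinase receptor and coagulation genes were followed across 4 culture media in RAW264.7, a macrophage-like line from mouse. The 9 genes are Plaur, Plau, F5, F3, F7, F10, Serpinb2, Thbd and Procr, out of 30464 genes named on the array. Each was taken by its symbol in the array's annotation and had 1 probe set, so choosing the brightest probe set of a gene left nothing to choose. The list was drawn up with earlier results of these arrays known, and Plaur and F5 were chosen by their measured rises between media, which were among the largest. For that reason no p-value is given for Plaur and F5 except for CSH added to SCR medium, and their place in the counts of members past the threshold is a description. The comparison with CSH shares the SCR arrays with those rises, so its p-values for Plaur and F5 are not free of that choice either.

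Cells were kept for 24 h in 1 of 4 media, with 3 arrays per medium. KO medium was conditioned by JMJD6-knockout PyMT-41C cells (replicates 1, 2 and 3), and SCR medium by SCR PyMT-41C cells (1, 3 and 4). A further group received SCR medium with CSH, given in the labels as a block of the receptor of annexin A1 (1, 2 and 4), and the last group normal medium (2, 3 and 4). Conditioned medium was mixed in equal parts with RPMI holding 10% serum. The knockout was in the cells that conditioned the medium, so no array measured the deleted gene in its own cells, and the labels do not say whether the knockout line was a single clone. No group had CSH in normal medium, and none is named as a vehicle control. A gene is said to have changed where its p, adjusted over 18119 tested genes, was below 0.05. The labels do not state that replicates came from separate cultures, so the spread that the p-values rest on may be technical.

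The plasminogen system and the clotting cascade are chains of proteases that meet at the cell surface. Urokinase, bound to its receptor, turns plasminogen into plasmin, which dissolves fibrin and cleaves matrix, and Serpinb2 inhibits urokinase. Clotting starts when tissue factor, encoded by F3, binds factor VII. Factor X is activated next, and with its cofactor factor V it forms the complex that makes thrombin. Thrombomodulin and the endothelial protein C receptor turn thrombin towards activating protein C, which degrades activated factor V. Macrophages are known to make several of these proteins, the urokinase receptor and tissue factor among them.

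Plaur, which encodes the urokinase receptor (GRCm38.p6, the same assembly as mm10, chromosome 7, 24460937 to 24475970), was far higher in every conditioned medium than in normal medium and highest in KO medium. On the log2 scale of the array signal it read 13.86, 13.89 and 14.21 in KO medium, 12.64, 12.76 and 12.24 in SCR medium with CSH, 12.52, 12.55 and 12.64 in SCR medium, and 9.28, 9.04 and 9.29 in normal medium. The KO arrays lay above all others and the normal arrays below all others, while the SCR arrays fell within the range of the CSH arrays. As fold changes, SCR medium stood 10.3-fold over normal medium (log2 difference 3.37, SE 0.13) and KO medium 2.67-fold over SCR medium (1.42, SE 0.13), giving 27.5-fold between KO medium and normal medium. In bulk RNA, fewer cells that express a gene and less of its RNA per cell cannot be told apart.

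CSH left Plaur at 12.55 ± 0.27, against 12.57 ± 0.06 in SCR medium (SD, n = 3 each). The difference of -0.02 had a 95% interval of -0.30 to 0.26 (limma adjusted p = 0.992). The 3 arrays with CSH were more spread than those of SCR medium, with replicate 4 the lowest. KO medium against SCR medium with CSH gave 1.44 (SE 0.13), close to the 1.42 against SCR medium alone. The 2 differences share the KO arrays.

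F5, which encodes coagulation factor V (chromosome 1, 164151835 to 164220277), had the same outline with a further step. It read 11.22, 11.11 and 11.45 in KO medium, 9.87, 9.92 and 9.98 in SCR medium with CSH, 10.52, 10.11 and 10.42 in SCR medium, and 6.26, 6.39 and 6.27 in normal medium. The 4 groups did not overlap, in the order KO medium, SCR medium, SCR medium with CSH and normal medium. SCR medium was 16.5-fold over normal medium (log2 difference 4.04, SE 0.11), and KO medium was 1.88-fold over SCR medium (0.91, SE 0.11). Between KO medium and normal medium the ratio was 31.0-fold.

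With CSH in SCR medium F5 averaged 9.92 ± 0.06, against 10.35 ± 0.21 in SCR medium without it (SD, n = 3 each). The difference of -0.43 (SE 0.11, 95% interval -0.66 to -0.20) had an unadjusted p = 0.00152 but did not pass after adjustment over all genes (limma adjusted p = 0.619). With 1 array left out the difference ran from -0.55 to -0.34. Its sign could not reverse there, since the arrays with and without CSH did not overlap. With array weights the difference was -0.49 and passed (adjusted p = 0.0353), in a fit where SCR replicate 4 took a weight of 6.14. The SCR arrays also entered the rises by which F5 was chosen, so these p-values are not independent of that choice.

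**Figure D1:**
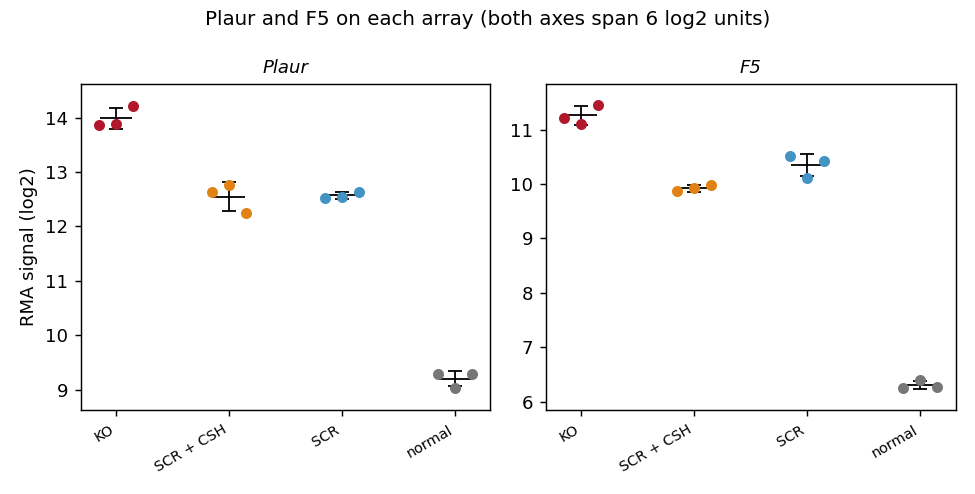
Log2 array signal (vertical axis) of Plaur and F5 on each of the 12 arrays, by medium (horizontal axis). Points are arrays, and bars show the mean with its SD of 3 arrays. The KO arrays of Plaur lie from 13.86 to 14.21 and the normal arrays from 9.04 to 9.29, and the F5 arrays of SCR medium with CSH, from 9.87 to 9.98, lie below those of SCR medium.

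The promoters of Plaur and F5, the members that rose most, and of F10, which fell, are shown because the genes moved in step or apart. Procr also rose, by less, and its window is not shown. Each is the 250 bases before the start of a RefSeq transcript (GRCm38.p6), read on the + strand of chr7:24462233-24462482 for Plaur, chr1:164151585-164151834 for F5 and chr8:13037058-13037307 for F10. The Plaur window lies inside the gene span given above, which starts at 24460937, so its positions count from that transcript's start. Those of F5 and F10 end just before the gene spans given for them. Capitals mark matches to any of 7 motifs searched on both strands, namely those of AP-1, CRE (TGACGTCA), NF-kB (one form of 10 letters), EGR (GCGNGGGCG), Sp1, C/EBP (TTGCNNAA) and the TATA box.
Plaur: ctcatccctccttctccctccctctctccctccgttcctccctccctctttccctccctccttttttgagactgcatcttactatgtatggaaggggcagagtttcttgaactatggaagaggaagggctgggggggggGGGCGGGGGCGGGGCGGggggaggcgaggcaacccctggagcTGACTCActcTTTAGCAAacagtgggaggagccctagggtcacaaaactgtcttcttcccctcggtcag
F5: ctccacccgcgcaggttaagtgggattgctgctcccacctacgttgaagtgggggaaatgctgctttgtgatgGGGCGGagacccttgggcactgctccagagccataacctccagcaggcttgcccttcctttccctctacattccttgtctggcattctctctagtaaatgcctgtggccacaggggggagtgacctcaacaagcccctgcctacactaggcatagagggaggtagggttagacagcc
F10: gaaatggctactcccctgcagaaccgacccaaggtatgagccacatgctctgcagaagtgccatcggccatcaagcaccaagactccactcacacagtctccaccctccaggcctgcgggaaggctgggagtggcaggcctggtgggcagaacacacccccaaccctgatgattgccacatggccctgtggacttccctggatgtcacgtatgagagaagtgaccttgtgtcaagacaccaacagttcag
The Plaur window held 1 AP-1 match (TGANTCA) at -69 to -63 from the start, 3 Sp1 matches at -111 to -106, -105 to -100 and -100 to -95, an EGR match at -109 to -101 that overlaps the first and the second of them, and 1 C/EBP match on the other strand at -59 to -52. The F5 window held a single Sp1 match (GGGCGG) at -177 to -172, and the F10 window held no match. Of 32851 such windows over all genes, 6.75% held the AP-1 letters, 32.7% the Sp1 letters, 9.56% the C/EBP letters and 4.7% the EGR letters. Among the 7 members with a window, AP-1 letters were in those of Plaur, F3, Serpinb2 and Procr, and the TATA letters (TATAAA) in that of Serpinb2 alone. A match is a run of letters, not a measured binding site.

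Plau, which encodes urokinase itself (chromosome 14, 20836662 to 20843388), went the other way from its receptor. It read 12.79, 13.05 and 12.59 in KO medium, 13.05, 13.25 and 12.65 in SCR medium with CSH, 12.78, 13.12 and 13.05 in SCR medium, and 14.03, 13.65 and 13.64 in normal medium. Every conditioned-medium array lay below every normal array, and the 3 conditioned media overlapped. Plau fell by 0.79 on the log2 scale in SCR medium relative to normal medium (SE 0.16, limma adjusted p = 0.00192), by 0.96 in KO medium (adjusted p = 0.000362) and by 0.79 in SCR medium with CSH (adjusted p = 0.00195). KO medium and SCR medium differed by -0.17 (95% interval -0.52 to 0.18, adjusted p = 0.995), and SCR medium with and without CSH by 0.00 (-0.35 to 0.35, adjusted p = 1.0).

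Serpinb2, which encodes the urokinase inhibitor also called PAI-2 (chromosome 1), lay below the median of all probe sets, which was 5.4 to 5.52 by array, in every medium. Its arrays ran from 4.62 to 4.77 in KO medium, 4.69 to 4.80 in SCR medium with CSH, 4.58 to 4.75 in SCR medium and 4.57 to 4.77 in normal medium. These ranges overlapped, and the gene was not tested.

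Of the genes that start clotting, F3 lay above the array medians and F7 below them, and neither gave a call. F3, which encodes tissue factor (chromosome 3), read 6.22, 6.65 and 6.10 in KO medium, 6.26, 6.33 and 6.28 in SCR medium with CSH, 6.20, 6.32 and 6.25 in SCR medium, and 6.76, 6.38 and 6.45 in normal medium. SCR arrays lay just below normal arrays, and KO replicate 2 lay within the range of normal medium. The differences from normal medium were -0.27 in SCR medium (SE 0.13, limma adjusted p = 0.116) and -0.21 in KO medium (adjusted p = 0.229). Both passed when KO replicate 2 was left out, at -0.27 (adjusted p = 0.0328) and -0.37 (adjusted p = 0.012). F7, which encodes factor VII (chromosome 8), ran from 5.08 to 5.22 in KO medium, 5.17 to 5.32 in SCR medium with CSH, 5.11 to 5.19 in SCR medium and 5.24 to 5.39 in normal medium, all below the array medians, and was not tested.

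F10, which encodes factor X, the protease that factor V assists, starts 1499 bases after F7 ends on chromosome 8 (13037308 to 13056676). It read 9.16, 9.55 and 8.94 in KO medium, 9.35, 9.68 and 9.18 in SCR medium with CSH, 9.0, 9.28 and 9.51 in SCR medium, and 10.17, 9.81 and 9.92 in normal medium. All conditioned-medium arrays lay below the normal arrays and overlapped with one another. F10 fell by 0.70 in SCR medium relative to normal medium (SE 0.17, limma adjusted p = 0.00632), by 0.75 in KO medium (adjusted p = 0.00361) and by 0.56 in SCR medium with CSH (adjusted p = 0.022). The last call was lost without normal replicate 2 or CSH replicate 1 or 4, at adjusted p from 0.0639 to 0.092. KO medium and SCR medium differed by -0.05 (95% interval -0.42 to 0.33, adjusted p = 0.995), and SCR medium with and without CSH by 0.14 (-0.24 to 0.52, adjusted p = 0.954). Factor V and factor X, partners in one complex, had transcripts that moved in opposite directions in conditioned medium.

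The receptors of the protein C pathway differed less between media. Procr, which encodes the endothelial protein C receptor (chromosome 2), read 7.29, 7.03 and 7.24 in KO medium, 7.12, 6.88 and 7.0 in SCR medium with CSH, 7.06, 6.83 and 6.95 in SCR medium, and 6.74, 6.56 and 6.62 in normal medium. All conditioned-medium arrays lay above the normal arrays, and the conditioned media overlapped. Procr rose by 0.31 in SCR medium relative to normal medium (SE 0.09, limma adjusted p = 0.0157), by 0.55 in KO medium (adjusted p = 0.000264) and by 0.36 in SCR medium with CSH (adjusted p = 0.00623). The first call was lost without normal replicate 3 or SCR replicate 1, at adjusted p = 0.0598 and 0.0688. KO medium was 0.24 above SCR medium (95% interval 0.05 to 0.43), which did not pass (adjusted p = 0.641).

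Thbd, which encodes thrombomodulin (chromosome 2), read 7.0, 6.78 and 7.05 in KO medium, 6.67, 6.66 and 6.68 in SCR medium with CSH, 6.75, 6.73 and 6.60 in SCR medium, and 6.99, 6.70 and 6.64 in normal medium. KO arrays lay above SCR arrays by a small margin and overlapped with normal arrays. No comparison of Thbd passed: KO medium against SCR medium gave 0.25 (95% interval 0.05 to 0.45, limma adjusted p = 0.643), and SCR medium against normal medium gave -0.08 (-0.28 to 0.12, adjusted p = 0.554). Without normal replicate 2, KO medium was 0.27 above normal medium and passed (adjusted p = 0.0218).

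**Figure D2:**
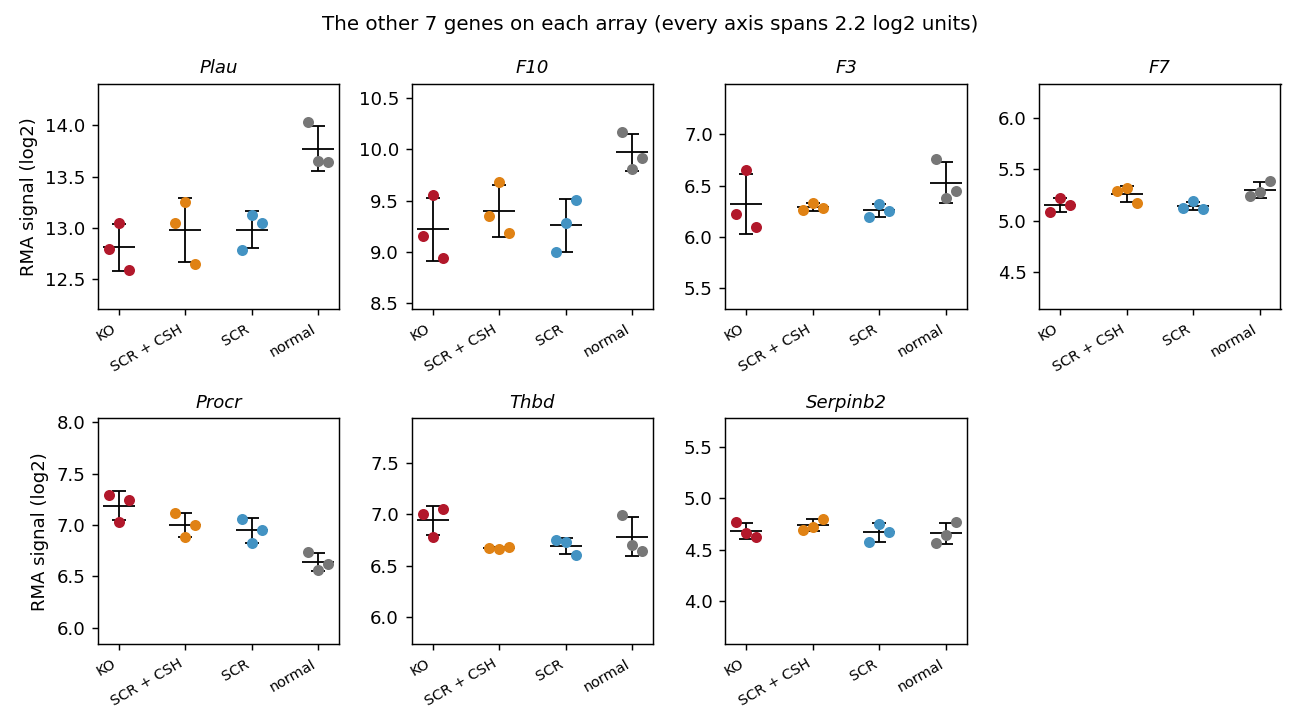
Log2 array signal (vertical axis) of the other 7 genes on each array, by medium (horizontal axis), with points for arrays and bars for the mean with its SD of 3 arrays. Plau and F10 are lower, and Procr is higher, on all conditioned-medium arrays than on normal arrays, and F7 and Serpinb2 stay below 5.4 throughout.

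Counted over the 7 members that passed the filter on low values, 5 were past the threshold in SCR medium relative to normal medium, Plaur, F5 and Procr upward and Plau and F10 downward, where 35.2% of all 18119 tested genes were. The same 5 were past it in KO medium and in SCR medium with CSH relative to normal medium, beside 39.1% and 35.8% of all genes. Over all genes 19.3% rose and 15.8% fell in SCR medium, 21.4% and 17.6% in KO medium, and 20.9% and 14.9% in SCR medium with CSH. These 3 comparisons share the normal arrays. Between KO medium and SCR medium 2 of 7 were past the threshold, Plaur and F5, beside 0.27% of all genes. The same 2 were past it between KO medium and SCR medium with CSH, beside 1.9% (1.21% rose). Because Plaur and F5 entered the list for these differences, nothing is read from the counts. CSH against SCR medium changed 0 of 7, beside 0.0% of all genes by limma; 1 of the 7, F5, had an unadjusted p below 0.05, and array weights called it. SCR and normal arrays stood fully apart for 6 of 7 members, where this held for 43.3% of all genes, for 5 in KO medium and normal medium (49.8%), and for 6 in SCR medium with CSH and normal medium (46.8%). They stood apart for 3 in KO medium and SCR medium (9.37%), for 3 in KO medium and SCR medium with CSH (21.8%), and for 1 in SCR medium with and without CSH (8.59%).

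**Figure D3:**
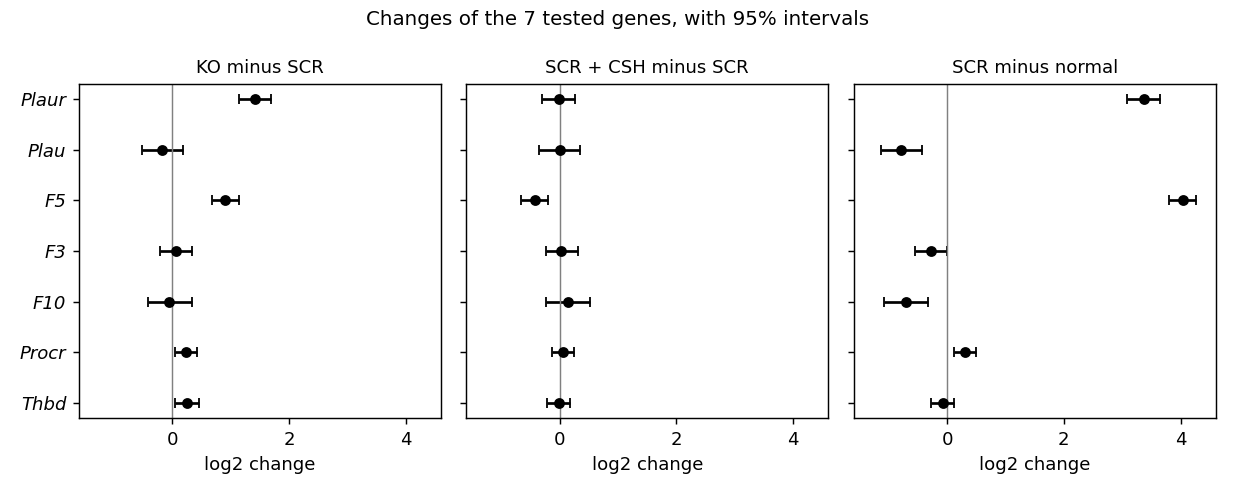
Log2 changes (horizontal axis) of the 7 tested genes for KO minus SCR medium, SCR medium with CSH minus SCR medium, and SCR minus normal medium. Points are limma estimates and bars 95% intervals. Plaur and F5 stand at 1.42 and 0.91 in the first panel and at 3.37 and 4.04 in the last, where Plau and F10 stand at -0.79 and -0.70.

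Other genes of the same pathways, 80 in 4 lists, were set beside the members. Of these, 72 were named on the array and 45 were tested. In SCR medium relative to normal medium 15 rose and 10 fell, beside 19.3% and 15.8% of all genes. Their median change was 0.03, where the median over all genes was 0.017. Between KO medium and SCR medium 0 of 45 passed in the limma test, beside 0.27% of all genes, so the count is near that share. Between SCR medium with and without CSH 0 of 45 passed, beside 0.0%. Those 2 comparisons share the SCR arrays.

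Among clotting factors and the proteins that make or move them, 5 of 14 tested genes rose in SCR medium relative to normal medium. Another 3 fell, beside 19.3% rising and 15.8% falling over all genes. Vkorc1l1, a vitamin K epoxide reductase, rose by 0.85 (limma adjusted p = 3.98e-06), while its paralogue Vkorc1 fell by 0.59 (adjusted p = 6.35e-05). Both recycle vitamin K. Ano6, a scramblase that exposes phosphatidylserine, the surface on which clotting complexes assemble, fell by 0.64, and Tmx1, a thioredoxin-like protein of the endoplasmic reticulum, rose by 0.56. Mcfd2 rose by 0.73 (adjusted p = 8.49e-05). Its partner Lman1, named after its value was seen, rose by 0.46 (adjusted p = 7.32e-05), and together they form the cargo receptor that carries factors V and VIII out of the endoplasmic reticulum. Fibrinogen genes, F2, F8, F11, F12, F13a1, F13b and Kng1 were below the filter. F9, named outside the rule, was above it. It averaged 5.96 in SCR medium and 6.48 in normal medium, a fall of 0.52 (limma adjusted p = 0.00114).

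In the list headed anticoagulants, 3 of 5 tested genes fell in SCR medium relative to normal medium, beside 15.8% of all genes. In that list 0 rose, beside 19.3%. Gas6 was put in this list but is a vitamin K-dependent ligand of TAM receptors, not an anticoagulant. It averaged 7.76 ± 0.04 in SCR medium and 9.69 ± 0.08 in normal medium (SD, n = 3 each). It fell by 1.93 (limma adjusted p = 3.2e-08). Entpd1, the ectonucleotidase CD39, fell by 0.87 (adjusted p = 2.2e-05). Pros1, protein S, the cofactor of activated protein C, fell by 0.42 (adjusted p = 0.000248). Gas6 was also 0.50 lower in KO medium than in SCR medium with CSH (adjusted p = 0.0209), a call lost after median centring, with the 6 arrays alone, and without KO replicate 1 or 3 or CSH replicate 2, at adjusted p up to 0.0896; Gas6 is named here outside the rule.

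In the plasminogen list, 8 of 21 tested genes rose in SCR medium relative to normal medium and 2 fell. Beside them, 19.3% of all genes rose and 15.8% fell. Serpinb8, a relative of Serpinb2, averaged 7.13 ± 0.06 in SCR medium and 9.07 ± 0.14 in normal medium (SD, n = 3 each). It fell by 1.94 (limma adjusted p = 2.86e-09). St14, the membrane protease matriptase, fell by 1.06. Mmp12, macrophage elastase, rose by 0.99. Itgam, an integrin subunit that partners the urokinase receptor, rose by 0.97, and Serpinb6a, an intracellular serpin, by 0.68. Between KO medium and SCR medium with CSH, 1 gene of this list passed, beside 1.9% of all genes. It was Anxa2, a plasminogen-binding annexin named outside the rule, 0.36 higher in KO medium (adjusted p = 0.0225). That call was lost with the replicate block, with the 6 arrays alone, and without KO replicate 1 or 2 or CSH replicate 2, at adjusted p up to 0.103.

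Among thrombin receptors and their signalling partners, 2 of 5 tested genes rose in SCR medium relative to normal medium and 2 fell. The shares over all genes were 19.3% and 15.8%. F2r, F2rl2 and F2rl3, the receptors themselves, were below the filter. The changes were Arrb1, a beta-arrestin (-0.79), the G protein subunits Gna12 (0.51) and Gna13 (-0.36), and the GTPase Rhoa (0.17, limma adjusted p = 0.0276). The Rhoa call was lost under several alternatives, with adjusted p = 0.136 after median centring. In the family of Ly6 and urokinase receptor domains, 0 of 6 other tested genes rose in SCR medium, where 19.3% of all genes did. Of the 6, 1 fell, Ly6e, by 0.25 (adjusted p = 0.0071), where 15.8% of all genes fell.

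Among 16 tested transcription regulators known at genes of this kind, 5 rose and 4 fell in SCR medium relative to normal medium. This stood beside 19.3% and 15.8% of all genes. Fosl2, an AP-1 subunit, averaged 11.12 ± 0.27 in SCR medium and 9.10 ± 0.12 in normal medium (SD, n = 3 each), a rise of 2.02 (limma adjusted p = 1.16e-06). Jun, another AP-1 subunit, fell by 1.22 (adjusted p = 8.34e-05) and Atf3 by 0.66. Klf4 rose by 0.42 and the NF-kB subunit Rela by 0.37. Of the 16, 1 changed between KO medium and SCR medium, beside 0.27% of all genes. It was Fosl2, at 12.18 ± 0.29 and 11.12 ± 0.27, a difference of 1.05 (adjusted p = 0.0165). Without SCR replicate 1 or 3 or KO replicate 1 or 3 that call was lost, at adjusted p from 0.0583 to 0.0929. It was also lost with the replicate block (1.13, adjusted p = 0.0518) and with the 6 arrays of the comparison alone (adjusted p = 0.0685).

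**Figure D4:**
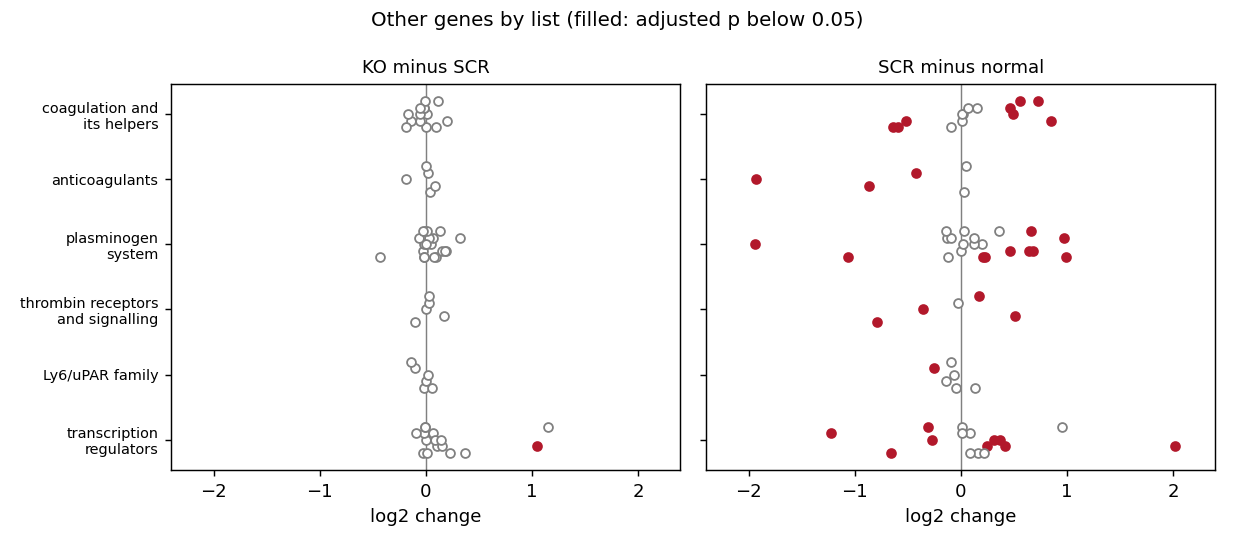
Log2 change (horizontal axis) of each tested gene, by list (vertical axis), for KO minus SCR medium and for SCR minus normal medium; vertical offsets within a list only separate points. Filled points passed at an adjusted p below 0.05: Fosl2 alone in the first panel, and genes on both sides of 0 in the second, with Gas6 and Serpinb8 at -1.93 and -1.94.

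The genes most like Plaur over the 12 arrays, by Pearson's r of log2 values among 11970 tested genes, were Tgm2 (tissue transglutaminase, r = 0.999), Il4ra (0.99), Vegfa (0.99), Dab2 (0.988) and Cxcl14 (0.988). F5 itself had r = 0.988 with Plaur. All of these correlations share the large step between normal and conditioned medium. Over the 9 conditioned-medium arrays Tgm2 again ranked first (r = 0.993), while Il4ra ranked 29 (0.94) and Vegfa 54 (0.919), and F5 had 0.914. Tgm2 averaged 11.16 in KO medium, 10.09 in SCR medium with CSH, 10.08 in SCR medium and 7.71 in normal medium, so, as with Plaur, CSH left its mean where it was in SCR medium.

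The genes most like F5 were Clic1 (r = 0.998), Dab2 (0.997), Il4ra (0.996), Sh3bgrl2 (0.995) and Dst (0.995). Over the 9 conditioned-medium arrays Clic1 ranked 3 (0.991) and Dab2 12 (0.973). Clic1, an intracellular chloride channel protein, averaged 15.96 in KO medium, 15.60 in SCR medium with CSH, 15.68 in SCR medium and 14.58 in normal medium, a much smaller range than that of F5. Dab2, an endocytic adaptor, averaged 13.36 in KO medium, 12.82 in SCR medium with CSH, 12.99 in SCR medium and 11.20 in normal medium.

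**Figure D5:**
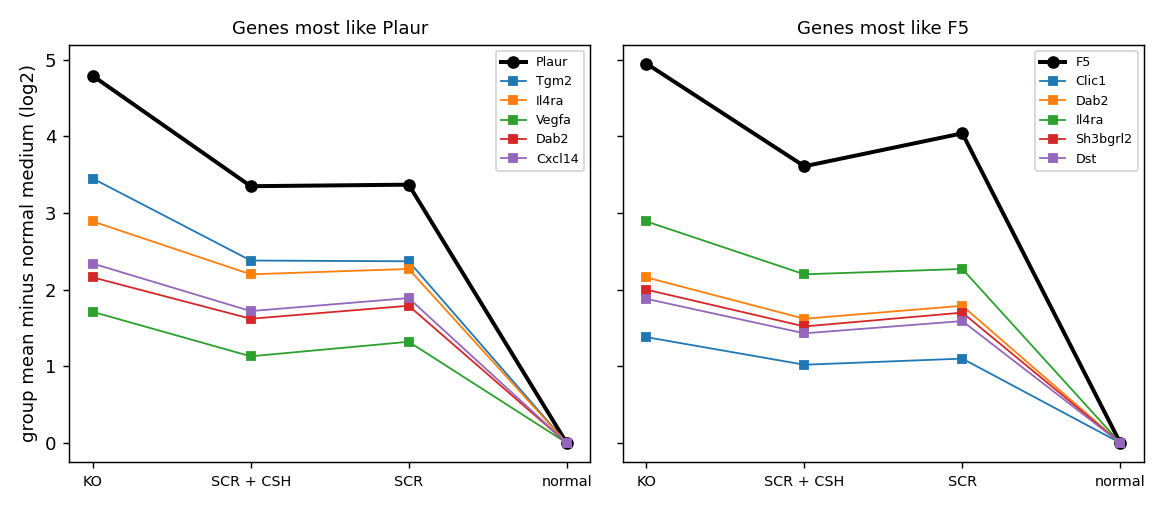
Group means relative to normal medium (vertical axis, log2) for Plaur and F5 and the 5 genes most like each, by medium (horizontal axis); lines join the means of one gene. Each gene is highest in KO medium, and the Plaur and Tgm2 lines are level between SCR medium with CSH and SCR medium where the F5 line is lower with CSH.

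Genes beside Plaur and F5 on the chromosome differed far less between media. The nearest tested genes beside Plaur, Smg9 and Cadm4, differed by -0.12 and 0.01 between SCR medium and normal medium (limma adjusted p = 0.227 and 0.925). Beside F5, Mettl18 and Slc19a2 rose by 0.73 (adjusted p = 5.44e-06) and 0.54 (adjusted p = 0.000714), against 4.04 for F5. Beside Plau, which fell by 0.79, Camk2g and Vcl fell by 0.52 and 0.91. The nearest tested genes of F10 were Mcf2l, which fell by 0.30, and Pcid2, at 0.02. Serpinb8 lies 64326 bases beyond Serpinb2. Cd93, beside Thbd, was 0.59 higher in KO medium than in SCR medium with CSH (adjusted p = 0.00685), where Thbd was 0.27 higher (adjusted p = 0.175).

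Markers of macrophages were bright, with 9 of 10 named and all 9 tested, and their mean log2 level ran from 13.32 to 13.37 in KO medium, 13.21 to 13.43 in SCR medium with CSH, 13.19 to 13.33 in SCR medium and 13.23 to 13.27 in normal medium. Of the 9, 3 rose and 4 fell in SCR medium relative to normal medium, beside 19.3% and 15.8% of all genes. Fcgr1 (2.57), Itgam (0.97) and Cd14 (0.61) were higher. Adgre1, which encodes F4/80 (-1.45), and Csf1r, the receptor of colony-stimulating factor (-1.79), were among the lower. For epithelial and carcinoma markers, the mean level over all 10 was 5.03 to 5.04 in KO medium, 5.03 to 5.05 in SCR medium with CSH, 4.99 to 5.08 in SCR medium and 5.01 to 5.03 in normal medium, below the array medians. In those lists 3 of 10 epithelial genes, 0 of 4 fibroblast genes, 0 of 5 hepatocyte genes, 1 of 7 endothelial genes, 3 of 5 platelet genes and 4 of 7 neutrophil genes passed the filter. In SCR medium relative to normal medium 0 of the 3 epithelial genes changed, beside 35.2% of all genes. Vwf (0.49), Pf4 (0.35) and S100a8 (2.22, limma adjusted p = 4.09e-06) rose. S100a8 averaged 8.30 in KO medium, 7.54 in SCR medium with CSH, 7.28 in SCR medium and 5.06 in normal medium. The mean level of the 7 neutrophil genes was 5.87 to 5.95 in KO medium, 5.76 to 5.87 in SCR medium with CSH, 5.74 to 5.85 in SCR medium and 5.44 to 5.53 in normal medium, and its part in the member results was not tested. Apart from S100a8, the tested neutrophil genes gave no call in SCR medium relative to normal medium, at -0.04 for S100a9, -0.09 for Ly6g and 0.09 for Camp.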

How the data were processed

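RNA of 12 samples was hybridised to Affymetrix arrays, 1 array per sample. The deposited values are log2 signals per probe set from the authors, and the submitters' processing notes name RMA, Affymetrix Expression Console and mm10. Tool versions and probe filters were not stated there. Scaling arrays to each other, as RMA does, removes any shift in total RNA, and small changes of dim genes are understated. The number of arrays limits the precision.

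The table holds 65528 probe sets with 0 missing values, and no 2 arrays were duplicates (at most 3.23% identical values). Probe sets were named through the platform table, with symbols updated by Entrez number or synonym in the RefSeq table of GRCm38.p6: 31018 had 1 gene, 1478 several and 33032 none listed here. The brightest probe set stood for a gene. Of 30464 genes, 18119 exceeded the median of the array on at least 3 arrays and were tested. Levels of different genes were not compared, since probe sets differ in brightness.

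Limma 3.58.1 (R 4.3.3), fitted by lmFit to the 12 arrays with 1 term for medium and moderated by eBayes with an intensity trend, gave 6 comparisons. An adjusted p (Benjamini-Hochberg over all tested genes) below 0.05 counted as changed. On simulated data for KO medium against SCR medium over 18119 genes, 87 of 100 genes changed by 0.58 and 97 of 100 changed by 1 (log2) were called, with 4 false calls. The simulated noise was independent and had the same spread on every array, whereas array weights here ran from 0.393 to 6.14. These shares may therefore not hold for the real arrays.

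Members and gene lists were chosen with earlier results of these data known. Beyond the members, up to 5 called genes with the largest change in SCR against normal medium per list are named, up to 3 in KO against SCR medium, the 5 genes most like Plaur and F5, and the nearest tested neighbours; predicted genes and small RNAs were left out of the likeness. Same-numbered arrays did not deviate together in all pairs (r from -0.07 to 0.29 over 12 pairs), so the numbers were not taken as pairs. Alternatives were other filters, normalizations, variance models, thresholds, probe set averaging, a replicate block, 6 arrays alone and each array left out. Figures used matplotlib 3.10.9.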

Additional observations from a re-analysis of the deposited data

How the results depend on the processing

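With 1 array left out, the KO minus SCR difference ran from 1.30 to 1.48 for Plaur and from 0.79 to 1.00 for F5, as a description of these chosen genes. Counts of members past the threshold with 1 array left out were 4 to 6 in SCR medium, 5 to 6 in KO medium and 4 to 5 with CSH, each against normal medium. Array weights raised the count with CSH against SCR medium to 1, F5, from 0. The replicate block changed no count of members, for example 5 in SCR medium against normal medium, and 5 of 12 arrays deviated most like an array of their own number. Counts of other pathway genes moved by over 1.5 times only in KO medium against SCR medium with CSH, where 2 passed: 1 passed after median centring or with the replicate block, 4 with array weights or an adjusted p below 0.1, and 0 with the 6 arrays alone or an adjusted p below 0.01, and 0 to 3 without 1 array. Over all genes, KO against SCR medium gave 49 calls, 376 with array weights, 22 with the 6 arrays alone and as few as 20, without KO replicate 1 or SCR replicate 3. CSH against SCR medium gave 0 calls, 79 with array weights and 1 with the stricter filter. KO medium against SCR medium with CSH gave 345 calls, 154 after median centring, 574 after quantile normalization, 654 with array weights and 107 to 373 without 1 array, lowest without CSH replicate 2. Without a filter on low values F7 differed by -0.16 between SCR and normal medium and did not pass (adjusted p = 0.0851). In KO medium against SCR medium, Vegfa and Dab2 lost a call under some alternatives, and Clic1, Cxcl14 and Dst gained one. In SCR medium against normal medium, Cd93 (0.27, limma adjusted p = 0.0334) lost its call under some. Its call in KO medium against SCR medium with CSH held without any 1 array (adjusted p from 0.00314 to 0.0316). Gm24553 and Sstr4, neighbours of Serpinb2 and Thbd, gained a call in SCR medium against normal medium with array weights. The cause of these shifts was not tested. Signals near the array median limit what can be said of F3, F7, Serpinb2, Thbd and Procr.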

Other observations

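Plau, F10 and F3 also shared their highest array in some groups, though not in all. In each of the 3 groups that hold a replicate 2, that array had the highest signal of the 3 for all of these genes: Plau read 13.05 in KO medium, 13.25 in SCR medium with CSH and 14.03 in normal medium, and F10 read 9.55 in KO medium, 9.68 in SCR medium with CSH and 10.17 in normal medium. F3 read 6.65, 6.33 and 6.76 on these arrays, but with CSH its other arrays were close, at 6.26 and 6.28. Its lowest array with CSH was replicate 1, where that of Plau and F10 was replicate 4. In SCR medium F10 was highest on replicate 4, and Plau and F3 on replicate 3. In KO medium, replicate 3 was the lowest array for Plau, F10 and F3 and the highest for Plaur, F5 and Thbd. Thbd and Procr were lowest on replicate 2 in KO medium and in SCR medium with CSH, and highest on it in normal medium. For Thbd with CSH the arrays hardly differed, at 6.66 on replicate 2 against 6.67 and 6.68. Over all tested genes the replicate 2 arrays also deviated together weakly. Their r was 0.08 for normal with KO medium, 0.12 for normal medium with CSH medium, and 0.25 for KO medium with CSH medium. This was not particular to replicate 2. The replicate 1 arrays had r = 0.14 for SCR with KO medium, 0.29 for SCR with CSH medium and 0.21 for KO with CSH medium. Pairs of arrays with different numbers had r from -0.23 to 0.21. No test was made of the pattern of these genes, which was seen in the data.

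Fos, an AP-1 subunit outside the rule for named genes, averaged 8.24 ± 1.17 in KO medium and 7.09 ± 0.25 in SCR medium (SD, n = 3 each). The difference of 1.15 was larger than that of Fosl2 but did not pass (limma adjusted p = 0.595), and the SD in KO medium was the larger of the 2.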
